A study of Mus musculus with 12 samples.

Results

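The 32 genes described here encode the enzymes and transporters of glycolysis, 4 proteins that set its rate or the fate of pyruvate, and the hypoxia-inducible factors with some of their targets. They were chosen by name, and a gene counted as measured where a probe set of the array is annotated to it and to no other gene. Its value is the signal of the probe set with the highest mean log2(signal + 16) over the 12 arrays. Of the 32 genes, 29 had such a probe set, and all 29 passed the filter on low signal, among 12629 genes tested of 18193 in the series. Gpi1, Gapdh and Eno1 had none, so no signal of theirs is analysed here. The members have 64 probe sets in all, and 18 members have more than 1.

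The study used mouse embryonic stem (ES) cells labelled 129P2/OlaHsd (E14, Ainv15), which carry Neurog1, a proneural transcription factor that starts neuronal differentiation, under a tetracycline-controlled system. The 4 groups of 3 arrays are uninduced cells in maintenance culture (0 h) and cells given 1 ug/ml doxycycline for 24, 48 and 72 h. For all groups the labels give the same genotype and the same medium, with FBS, hrLIF, puromycin and G418. Uninduced cells were sampled at 0 h only, so effects of the transgene, of doxycycline and of days in culture cannot be told apart. The labels call the 3 arrays of a group biological replicates without saying what was separate, and give no number of clones, so the p-values measure the spread between these samples, which may be technical.

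Glycolysis splits glucose into pyruvate in the cytosol, and lactate dehydrogenase turns pyruvate into lactate when it is not passed to mitochondria. ES cells are known for a high rate of glycolysis, and differentiating neurons for a shift towards oxidation of pyruvate in mitochondria. Under low oxygen the factors HIF-1 alpha (Hif1a) and HIF-2 alpha (Epas1) escape degradation, pair with ARNT and bind a short DNA element whose core is ACGTG or GCGTG. Many glycolytic genes are known HIF targets. The control of HIF alpha proteins is largely by degradation, which an RNA array does not measure.

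The arrays match their labels for the transgene: the Neurog1 signal was 4.53 to 18.7 on the 3 uninduced arrays and 465 to 1152 on the 9 induced arrays. Summed signal of 10 ES cell markers was 44865 to 50943 in uninduced cells, 22174 to 29854 at 24 h, 5855 to 8828 at 48 h and 5053 to 5824 at 72 h. That of 10 neuron markers was 4012 to 4516, 1857 to 4465, 10574 to 15450 and 26517 to 29237 in the same order. Stmn2 made up most of the uninduced neuron sum, at 3222 to 3649, and was 686 to 1654 at 24 h. Tubb3 was 332 to 504 in uninduced cells and 544 to 2333 at 24 h, and so rose while Stmn2 fell. Dcx also rose, from 8.27 to 15.0 in uninduced cells to 17.2 to 65.1 at 24 h. The sums of ES cell and neuron markers changed over the same 4 groups as the genes below. The part of cell types in the changes below was not tested. In bulk RNA, fewer cells of a type and less RNA per cell cannot be told apart. Other lists had lower sums, some of which also differed between groups. Over the 12 arrays 8 fibroblast and feeder markers summed to 89.5 to 335. The 6 mesoderm and muscle markers summed to 76.2 to 194, with 76.2 to 120 in uninduced cells and 133 to 179 at 24 h. The 6 endoderm markers summed to 42.3 to 134 in uninduced cells, 101 to 248 at 24 h, 198 to 302 at 48 h and 184 to 464 at 72 h. The 6 trophoblast markers summed to 1079 to 3653 at 24 h against 538 to 1467 in uninduced cells. The 4 astroglia markers summed to 24.2 to 87.3, with 60.0 to 80.0 in uninduced cells and 24.7 to 48.1 at 72 h. The 6 blood and endothelium markers summed to 171 to 272 in uninduced cells, 155 to 265 at 24 h, 39.5 to 89.8 at 48 h and 63.8 to 83.5 at 72 h.

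The first of the 24 h arrays stood apart. Over the genes tested it correlated with the other two 24 h arrays at r = 0.826 and 0.804, while the other pairs of arrays within a group lay between 0.961 and 0.987. On it 9 of the 29 members lay 1 or more log2 units from the mean of the other two 24 h arrays, and 12 members were higher than on any of the other 11 arrays. The third 24 h array had 5 members that far from its group and the third 72 h array 4. Calls on members that change without the first 24 h array are given beside each gene.

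Of the 29 members, 3 were called lower at 24 h, 11 at 48 h and 15 at 72 h. At 24 h against uninduced cells, 5 of the 29 members passed limma's moderated test at an adjusted p under 0.05: Pfkm and Epas1 were higher, and Pfkp, Pgk1 and Ldha lower. Of all genes tested 10.1% passed, 7.36% higher and 2.76% lower. At 48 h 14 members passed, 3 higher and 11 lower, against 34.1% of all genes, 21.1% higher and 13% lower. At 72 h 17 members passed, 2 higher and 15 lower, against 41.3% of all genes, 23.8% higher and 17.5% lower. The 29 members had median log2 differences of -0.24 (24 h), -0.76 (48 h) and -1.26 (72 h), where all genes tested had 0.10, 0.10 and 0.08. The 3 comparisons share the uninduced arrays.

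These counts depend on single arrays, most of all at 24 h. Without the first 24 h array 16 members passed at 24 h, 3 higher and 13 lower; without the first uninduced array 0 passed, without the second 0, and without the third 1. Without the first 24 h array, 19 members passed at 48 h, 15 of them lower, and 23 at 72 h, 19 of them lower. With the third 72 h array left out as well, 4 members were higher and 13 lower at 24 h, 4 and 17 at 48 h, and 4 and 19 at 72 h. The calls over all genes moved too. With 1 array left out they numbered 656 to 2906 at 24 h, 3158 to 6729 at 48 h and 3987 to 7404 at 72 h. Over all arrays they were 1279, 4306 and 5213. With the replicate number as a block, 9 members passed at 24 h, 4 higher and 5 lower, and at 48 h 3 were higher and 13 lower. At an unadjusted p under 0.05 in limma there were 12, 16 and 21 members at the 3 times. The shares of all genes are not given for these counts or for the block.

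The direction also depends in part on the scaling of the arrays, since centring each array on its median moved the median of all genes by -0.13 at 24 h, -0.30 at 48 h and -0.32 at 72 h, and quantile normalization by -0.14 at 48 h and -0.16 at 72 h. Of all genes, 930 were higher and 349 lower at 24 h (677 and 493 after centring), 2668 and 1638 at 48 h (1861 and 2689), and 3003 and 2210 at 72 h (2199 and 3380). After centring, 0 members were higher and 4 lower at 24 h, 1 and 13 at 48 h, and 1 and 20 at 72 h; after quantile normalization, 2 and 3, 1 and 8, and 1 and 16. Of all genes, 804 were higher and 340 lower at 24 h after quantile normalization, 2151 and 1911 at 48 h, and 2510 and 2652 at 72 h. No member that passed changed sign under either scaling. In the plot of differences by role, most points lie left of 0 at 72 h.

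**Figure D1:**
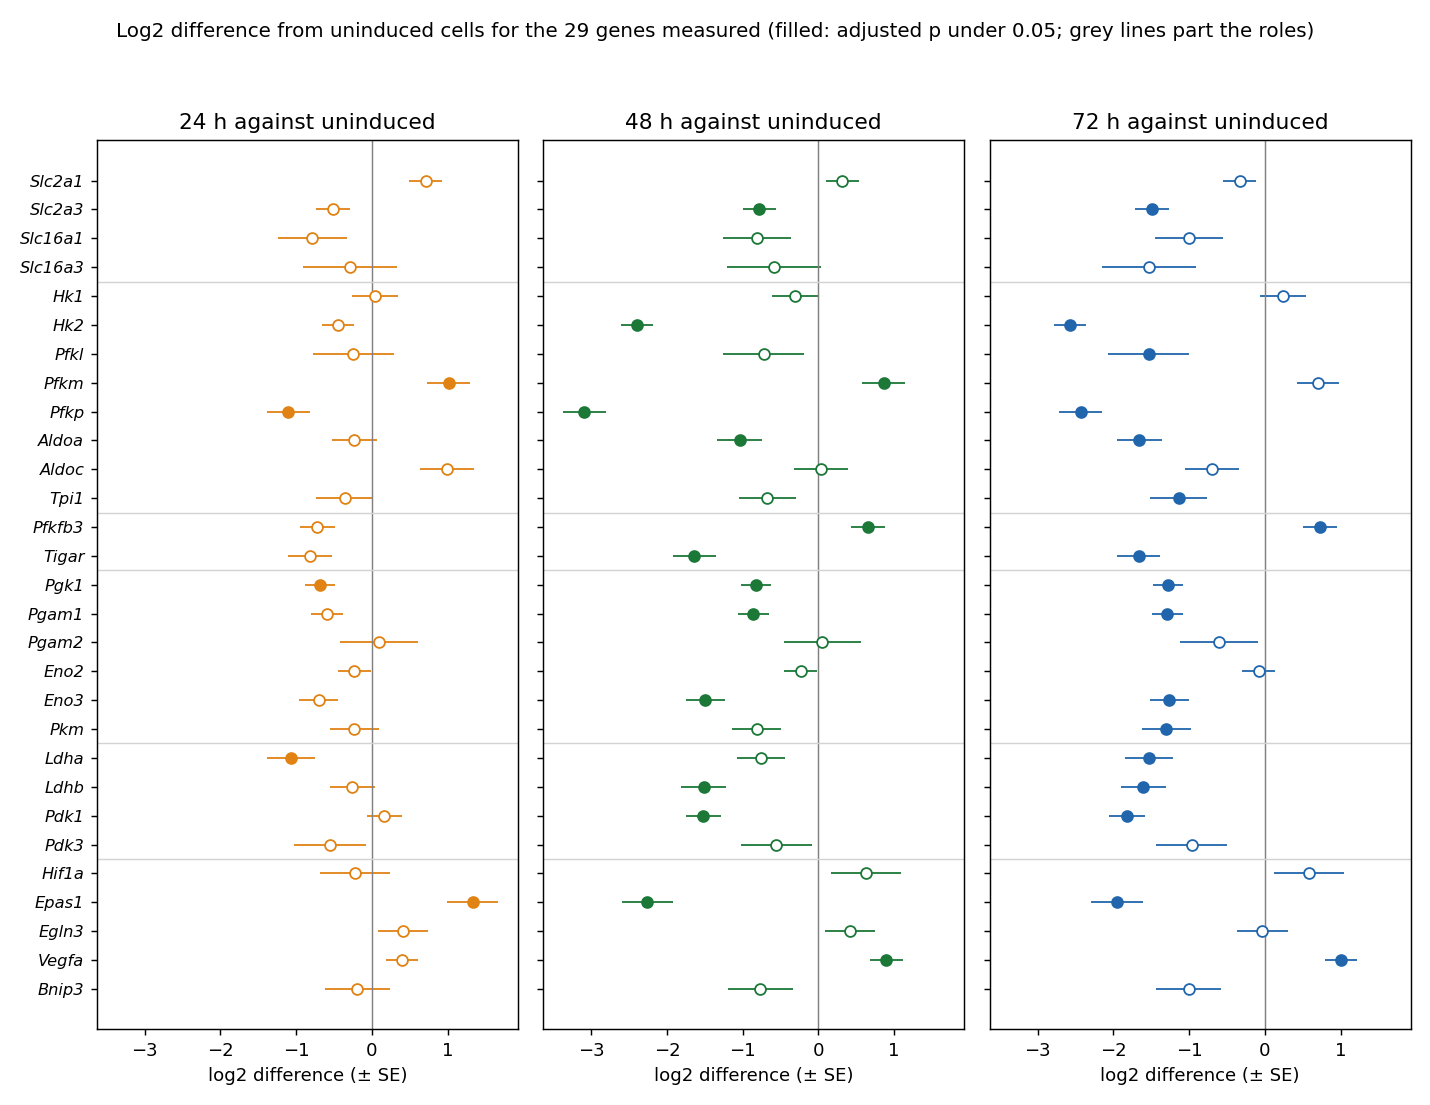
Log2 difference from uninduced cells at 24, 48 and 72 h (x axis, log2 units, with ± SE as bars) for the 29 members measured, ordered by role, from 3 arrays a group; filled points passed at an adjusted p under 0.05. The number of filled points left of 0 is 3 at 24 h, 11 at 48 h and 15 at 72 h, and the filled points right of 0 are Pfkm and Epas1, then Pfkm, Pfkfb3 and Vegfa, then Pfkfb3 and Vegfa.

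Because the HIF element is short, the sequence just upstream of the members was read from RefSeq promoters of mouse build GRCm38.p6, 250 bases before each listed start. Of the 32 genes, 30 matched, with 44 promoters; Slc2a3 and Epas1 did not match. Promoters of Gpi1, Gapdh and Eno1 are among the 44, and some starts of the same gene lie so close that their windows overlap. The letters ACGTG, or CACGT on the other strand, were present in 19 of the 44 (43.2%), against 16.6% of 32851 promoters of all genes. Counted by gene, they were present for 16 of 30 (53.3%), against 18.5% of 27025. The letters GCGTG, or CACGC on the other strand, were present in 22 of the 44 (50%), against 28.2%. The members' promoters had a median GC content of 60.4% against 52.4%, and among 14666 promoters between the 10th and 90th percentiles of the members' GC content, 20.3% held ACGTG and 38.4% GCGTG. A match is a description of the letters and shows neither binding nor a cause.

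Of the promoters, 5 are shown because their genes were all lower at 72 h while the upstream letters differed: 3 with ACGTG and 2 without. Each is written 5′ to 3′ on the gene's strand, and capitals mark ACGTG on either strand; CACGTG reads the same on both and counts as 2 matches. Ldha (chr7:46845554-46845803, plus strand) held 5 matches, beginning at positions -145, -144, -48, -47 and -34, where -1 is the last base before the start; it is 1 of 2 starts listed for Ldha, and the other held 0. Hk2 (chr6:82774455-82774704, minus strand) held 2, at -226 and -52. Pgk1 (chrX:106186850-106187099, plus strand) held 2, at -150 and -131. Pfkp (chr13:6648772-6649021, minus strand) held 0 matches to ACGTG and 3 to GCGTG, and Ldhb (chr6:142507958-142508207, minus strand) held 0 and 1.
Ldha: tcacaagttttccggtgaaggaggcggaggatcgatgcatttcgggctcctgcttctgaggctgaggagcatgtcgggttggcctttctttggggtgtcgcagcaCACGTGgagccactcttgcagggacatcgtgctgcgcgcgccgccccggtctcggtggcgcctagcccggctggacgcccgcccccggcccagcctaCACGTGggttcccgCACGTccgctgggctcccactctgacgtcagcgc
Hk2: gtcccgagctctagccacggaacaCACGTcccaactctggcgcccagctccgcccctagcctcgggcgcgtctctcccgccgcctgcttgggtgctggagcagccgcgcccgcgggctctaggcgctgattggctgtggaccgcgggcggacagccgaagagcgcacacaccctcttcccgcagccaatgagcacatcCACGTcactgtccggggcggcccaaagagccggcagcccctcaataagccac
Pgk1: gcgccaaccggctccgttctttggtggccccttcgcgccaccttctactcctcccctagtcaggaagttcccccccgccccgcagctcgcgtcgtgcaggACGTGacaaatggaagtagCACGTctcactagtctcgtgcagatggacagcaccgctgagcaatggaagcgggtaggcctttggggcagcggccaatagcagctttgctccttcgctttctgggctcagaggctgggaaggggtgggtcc
Pfkp: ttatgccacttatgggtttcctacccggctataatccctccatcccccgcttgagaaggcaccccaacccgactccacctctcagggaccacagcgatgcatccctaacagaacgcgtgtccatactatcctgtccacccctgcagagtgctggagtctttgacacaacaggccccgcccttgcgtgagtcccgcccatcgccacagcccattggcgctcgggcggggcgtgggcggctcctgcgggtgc
Ldhb: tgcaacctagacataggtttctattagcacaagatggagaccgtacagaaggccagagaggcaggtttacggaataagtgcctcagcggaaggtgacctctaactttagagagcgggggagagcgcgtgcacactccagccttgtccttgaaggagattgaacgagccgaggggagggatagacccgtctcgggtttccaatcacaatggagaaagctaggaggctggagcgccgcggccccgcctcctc

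Glucose enters through Slc2a1 (GLUT1) and Slc2a3 (GLUT3), and these transporters moved apart. The Slc2a3 signal was 6479, 6365 and 5416 on the uninduced arrays, 5910, 3391 and 3840 at 24 h, 2832, 3503 and 4446 at 48 h, and 2088, 2010 and 2366 at 72 h. All 48 h and 72 h arrays lay below all uninduced arrays. Slc2a3 fell by 0.78 ± 0.22 (log2 units, ± SE, here and below) at 48 h (limma adjusted p = 0.0164) and fell by 1.49 ± 0.22 at 72 h (adjusted p = 0.000183). The 48 h call was lost after quantile normalization (adjusted p = 0.0745) and without the first or second array of the uninduced or the 48 h group. Without the first 24 h array the 24 h difference, -0.51 ± 0.22 (adjusted p = 0.175) over all arrays, was -0.75 ± 0.17 (adjusted p = 0.00751).

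The Slc2a1 signal was 6495, 5355 and 5917 in uninduced cells, 11672, 7283 and 10601 at 24 h, 6822, 6598 and 8843 at 48 h, and 4293, 3810 and 6284 at 72 h. The 3 arrays of 24 h lay above the uninduced arrays, and the 72 h arrays overlapped them. The differences were 0.71 ± 0.22 at 24 h (adjusted p = 0.0598, and 0.0203 with the replicate number as a block), 0.32 ± 0.22 at 48 h and -0.33 ± 0.22 at 72 h. After quantile normalization the rises at 24 h (0.78, adjusted p = 0.0106) and 48 h (0.72, adjusted p = 0.00503) passed and the 72 h difference took the other sign (0.11). The further probe sets of Slc2a1 gave 0.92 (adjusted p = 0.0237) and 1.32 (adjusted p = 0.0471) at 24 h, in a fit of 22951 probe sets.

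The lactate and pyruvate carriers Slc16a1 (MCT1) and Slc16a3 (MCT4) did not pass. The Slc16a1 signal was 1504, 1317 and 1162 in uninduced cells and 415, 447 and 1475 at 72 h, with the third 72 h array among the uninduced values. The Slc16a3 signal was 255, 128 and 90.0 in uninduced cells and 60.9, 61.9 and 12.8 at 72 h, with no overlap. Their differences at 72 h were -1.00 ± 0.45 (adjusted p = 0.0941) and -1.53 ± 0.62 (adjusted p = 0.0655). With the replicate number as a block the adjusted p was 0.0401 for Slc16a1 and 0.00256 for Slc16a3. Replicate numbers were not taken as pairing for 72 h against uninduced, so block values at 72 h, here and below, are an alternative fit only. Without the third 72 h array the Slc16a1 difference was -1.58 (adjusted p = 0.00586) and that of Slc16a3 -1.05 (adjusted p = 0.236). After quantile normalization the Slc16a3 difference passed (adjusted p = 0.0255), and both passed without the first 24 h array (adjusted p = 0.0494 for Slc16a1 and 0.0101 for Slc16a3).

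Hexokinase traps glucose in the cell as a phosphate, and of its isoenzymes Hk2 fell while Hk1 showed no call. The Hk2 signal was 2459, 2130 and 1976 in uninduced cells, 1951, 1327 and 1550 at 24 h, 351, 436 and 423 at 48 h, and 383, 310 and 375 at 72 h. Every 48 h and 72 h array lay far below every uninduced and 24 h array. Hk2 fell by 2.39 ± 0.21 at 48 h (adjusted p = 4.94e-06) and fell by 2.57 ± 0.21 at 72 h (adjusted p = 1.59e-06); the 24 h difference was -0.45 ± 0.21 (adjusted p = 0.208), and -0.60 ± 0.16 (adjusted p = 0.0155) without the first 24 h array. Both calls held under all 23 alternatives tried. The Hk1 signal lay between 103 and 287 on the 12 arrays, with differences of 0.04, -0.31 and 0.24 ± 0.30 at 24, 48 and 72 h, of which those at 24 and 72 h took the other sign after median centring.

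Phosphofructokinase commits sugar to glycolysis, and its 3 isoform genes are named for platelet (Pfkp), liver (Pfkl) and muscle (Pfkm). The Pfkp signal was 2064, 1534 and 1079 in uninduced cells, 539, 789 and 780 at 24 h, 139, 213 and 144 at 48 h, and 297, 300 and 213 at 72 h. Every induced array lay below every uninduced array, and the 48 h and 72 h arrays overlapped. Pfkp fell by 1.10 ± 0.29 at 24 h (adjusted p = 0.0277), fell by 3.09 ± 0.29 at 48 h (adjusted p = 6.79e-06) and fell by 2.43 ± 0.29 at 72 h (adjusted p = 2.82e-05). The 24 h call was lost without the first or the second uninduced array, and where the fit held the compared groups alone. Of its 2 further probe sets, one gave -1.34, -2.47 and -2.77 at the 3 times, and the other, with signals of 24.5 to 101, gave -0.80, -0.72 and -0.09.

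The Pfkm signal was 188, 202 and 204 in uninduced cells, 661, 351 and 310 at 24 h, 389, 435 and 306 at 48 h, and 381, 354 and 270 at 72 h. Every induced array lay above every uninduced array. Pfkm rose by 1.02 ± 0.28 at 24 h (adjusted p = 0.0384) and by 0.86 ± 0.28 at 48 h (adjusted p = 0.0312), and the 72 h difference of 0.70 ± 0.28 had an adjusted p of 0.0635, or 0.0423 with the replicate block and 0.00251 without the first 24 h array. After quantile normalization the adjusted p was 0.0737 at 24 h and 0.0751 at 48 h, and after median centring 0.0772 and 0.151. Leaving out any 1 of the 3 uninduced arrays ended both calls, and so did leaving out the first or second 48 h array; in all, the 24 h call held under 12 of 23 alternatives and the 48 h call under 16.

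The Pfkl signal was 1460, 991 and 788 in uninduced cells, 2643, 597 and 425 at 24 h, 859, 676 and 425 at 48 h, and 395, 397 and 275 at 72 h. The first 24 h array was the highest of all 12. Pfkl fell by 1.53 ± 0.53 at 72 h (adjusted p = 0.0351), a call lost without the first or second uninduced array or any 1 of the 72 h arrays, and with the mean of all its probe sets, and the 24 h and 48 h differences were -0.24 and -0.72 ± 0.53. Without the first 24 h array the 24 h difference was -1.03 ± 0.30 (adjusted p = 0.0242), and the 48 h difference also passed (adjusted p = 0.0354).

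Aldolase splits the sugar bisphosphate, and triose phosphate isomerase (Tpi1) interconverts its products. The Aldoa signal was 8167, 6205 and 6746 in uninduced cells, 10336 to 4076 at 24 h, 4001, 3842 and 2534 at 48 h, and 2238, 2546 and 1890 at 72 h. The 24 h arrays ranged on both sides of the uninduced ones, and the later arrays lay below them. Aldoa fell by 1.04 ± 0.30 at 48 h (adjusted p = 0.0171; 0.0620 after quantile normalization) and fell by 1.66 ± 0.30 at 72 h (adjusted p = 0.000765); the 48 h call was also lost without the first uninduced or the third 48 h array. Its 24 h difference was -0.23 ± 0.30 (adjusted p = 0.669), and -0.63 ± 0.20 (adjusted p = 0.0390) without the first 24 h array. Tpi1 went from 5024, 3916 and 2800 in uninduced cells to 1550, 1948 and 1686 at 72 h, a fall of 1.14 ± 0.37 (adjusted p = 0.0266) that was lost after quantile normalization and without the first or second uninduced or the first or the third 72 h array. When the first 24 h array was left out, Tpi1 also passed at 24 h (-0.88 ± 0.23, adjusted p = 0.0158) and 48 h (adjusted p = 0.0147). Aldoc, the isoform known from brain, had signals of 145, 146 and 66.2 in uninduced cells and 446, 173 and 176 at 24 h, a difference of 0.99 ± 0.36 (adjusted p = 0.104, and 0.0445 with the replicate block), and of 0.56 ± 0.27 (adjusted p = 0.161) without the first 24 h array; at 72 h it was -0.70 ± 0.36 (adjusted p = 0.139, with 0.0290 after quantile normalization and 0.0251 without that array).

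Of the proteins that set the level of the fructose bisphosphate that activates phosphofructokinase, Pfkfb3 makes it and Tigar removes it. The Tigar signal was 330, 258 and 339 in uninduced cells, 266, 125 and 138 at 24 h, 83.9, 70.6 and 113 at 48 h, and 92.4, 66.9 and 101 at 72 h. All 48 h and 72 h arrays lay below the other 6. Tigar fell by 1.64 ± 0.29 at 48 h (adjusted p = 0.000824) and fell by 1.67 ± 0.29 at 72 h (adjusted p = 0.000522), and its 24 h difference of -0.82 ± 0.29 had an adjusted p of 0.0941, or 0.0488 with the block; without the first 24 h array it was -1.13 ± 0.22 (adjusted p = 0.00295). A further probe set of Tigar did not follow it at 72 h, with a difference of 0.10 ± 0.29.

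The Pfkfb3 signal was low throughout, at 53.9, 66.6 and 52.0 in uninduced cells, 35.7, 33.8 and 18.2 at 24 h, 119, 81.7 and 99.9 at 48 h, and 114, 103 and 99.4 at 72 h. It was lower than in uninduced cells on the 24 h arrays and higher on the later ones. Its difference was -0.72 ± 0.23 at 24 h (adjusted p = 0.0636), which passed with the replicate block (adjusted p = 0.049951) and without the first 24 h array (adjusted p = 0.0190), and it rose by 0.65 ± 0.23 at 48 h (adjusted p = 0.0398) and 0.73 ± 0.23 at 72 h (adjusted p = 0.0205). Neither rise passed after quantile normalization (adjusted p = 0.400 and 0.306) or median centring (0.258 and 0.172). Its further probe set gave 0.30 at 24 h, 0.44 at 48 h and 0.38 at 72 h, none of which passed.

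In the lower part of glycolysis, Pgk1 makes ATP, Pgam1 moves the phosphate, enolase makes phosphoenolpyruvate, and Pkm makes ATP and pyruvate. Of the 6 genes measured there, 1 passed at 24 h, 3 at 48 h and 4 at 72 h, and every call was lower, where 2.76%, 13% and 17.5% of all genes were lower. The Pgk1 signal was 8655, 5892 and 6070 in uninduced cells, 5143, 3949 and 3677 at 24 h, 4142, 4219 and 3182 at 48 h, and 2556, 2793 and 3037 at 72 h. Every induced array lay below every uninduced array. Pgk1 differed by -0.68 ± 0.20 (adjusted p = 0.0468), -0.82 ± 0.20 (adjusted p = 0.00645) and -1.27 ± 0.20 (adjusted p = 0.000251) at the 3 times, and passed at each; the 24 h call held in 9 of 23 alternatives and was lost when any 1 array other than the first of 24 h was left out. The 48 h call was lost after quantile normalization (adjusted p = 0.0562).

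Pgam1 had signals of 5801, 5361 and 5787 in uninduced cells, 5406, 3105 and 3077 at 24 h, 3415, 3074 and 2865 at 48 h, and 2145, 2199 and 2602 at 72 h. It fell by 0.86 ± 0.21 at 48 h (adjusted p = 0.00703) and fell by 1.29 ± 0.21 at 72 h (adjusted p = 0.000354), and the 24 h difference of -0.60 ± 0.21 (adjusted p = 0.0938) was -0.87 ± 0.13 (adjusted p = 0.000428) without the first 24 h array. The Pkm signal was 7125, 5374 and 5638 in uninduced cells, 9406, 4146 and 3405 at 24 h, 4191, 3552 and 2653 at 48 h, and 2882, 2555 and 1934 at 72 h. All arrays of 48 h and 72 h lay below the uninduced ones. Pkm fell by 1.30 ± 0.32 at 72 h (adjusted p = 0.00601), and its 48 h difference of -0.81 ± 0.32 had an adjusted p of 0.0693, or 0.0135 with the block. Without the first 24 h array Pkm also passed at 24 h (-0.67 ± 0.21, adjusted p = 0.0342) and 48 h (adjusted p = 0.00248). The array has 1 single-gene probe set for Pkm here, which does not tell its M1 and M2 splice forms apart.

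Among the enolases, Eno3, the form known from muscle, had signals of 142, 254 and 170 in uninduced cells, 135, 106 and 84.7 at 24 h, 56.3, 60.3 and 49.0 at 48 h, and 85.4, 67.7 and 52.0 at 72 h. It fell by 1.49 ± 0.26 at 48 h (adjusted p = 0.000723) and fell by 1.26 ± 0.26 at 72 h (adjusted p = 0.00169). Its 24 h difference was -0.70 ± 0.26 (adjusted p = 0.108), and -0.85 ± 0.25 (adjusted p = 0.0264) without the first 24 h array. Eno2, the form known from neurons, lay between 18.5 and 34.5 on the 12 arrays, close to the median signal of an array (19.5 to 32.8). Its difference from uninduced cells was -0.23 ± 0.22 at 24 h and 48 h and -0.08 ± 0.22 at 72 h, while the summed neuron markers rose to 26517 or more. The muscle form Pgam2 also lay low, between 5.45 and 68.4, and did not pass.

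Lactate dehydrogenase joins pyruvate and lactate, with Ldha known to favour lactate and Ldhb pyruvate. The Ldha signal was 8151, 6921 and 8230 in uninduced cells, 7328, 2902 and 2318 at 24 h, 4956, 4745 and 4073 at 48 h, and 2590, 2827 and 2588 at 72 h. The second and the third 24 h arrays were as low as the 72 h arrays, the first 24 h array lay among the uninduced ones, and the 48 h arrays lay between. Ldha fell by 1.07 ± 0.32 at 24 h (adjusted p = 0.0493) and fell by 1.53 ± 0.32 at 72 h (adjusted p = 0.00190), and the 48 h difference of -0.76 ± 0.32 had an adjusted p of 0.0839. Without the first 24 h array the 24 h difference was -1.57 ± 0.14 (adjusted p = 1.02e-05) and the 48 h difference passed (adjusted p = 0.000222); the 24 h call held in 8 of 23 alternatives, and leaving out any other array ended it.

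The Ldhb signal was 1621, 1828 and 1386 in uninduced cells, 2158, 1246 and 889 at 24 h, 430, 581 and 670 at 48 h, and 458, 587 and 510 at 72 h. The 24 h arrays overlapped the uninduced ones and the later 6 lay below both. Ldhb fell by 1.51 ± 0.30 at 48 h (adjusted p = 0.00181) and fell by 1.61 ± 0.30 at 72 h (adjusted p = 0.000897). Its 3 further probe sets also passed at both times, with differences of -1.41, -1.50 and -1.54 at 48 h and -1.61, -1.61 and -1.69 at 72 h.

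Pdk1 and Pdk3 are kinases that switch off pyruvate dehydrogenase and so limit the use of pyruvate in mitochondria, and Pdk1 is a known HIF-1 target. The Pdk1 signal was 1094, 894 and 765 in uninduced cells, 863, 1188 and 1037 at 24 h, 282, 353 and 289 at 48 h, and 296, 254 and 197 at 72 h. The uninduced and 24 h arrays overlapped, and it was lower on all later arrays. Pdk1 fell by 1.52 ± 0.23 at 48 h (adjusted p = 0.000325) and fell by 1.82 ± 0.23 at 72 h (adjusted p = 5.85e-05). The Pdk3 signal was 496, 466 and 394 in uninduced cells, and 94.3, 178 and 616 at 72 h, so that the third 72 h array was the highest of all 12. The Pdk3 difference at 72 h was -0.97 ± 0.47 (adjusted p = 0.119), and without the third 72 h array it was -1.67 (adjusted p = 0.00126).

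The hypoxia factors themselves went different ways. The Epas1 signal was 568, 473 and 643 in uninduced cells, 1816, 1358 and 1180 at 24 h, 108, 96.0 and 107 at 48 h, and 85.0, 99.7 and 263 at 72 h. It was above the uninduced arrays on every 24 h array and below them on every later array. Epas1 rose by 1.33 ± 0.34 at 24 h (adjusted p = 0.0255) and fell by 2.26 ± 0.34 at 48 h (adjusted p = 0.000262) and fell by 1.95 ± 0.34 at 72 h (adjusted p = 0.000557). The 24 h rise was lost after median centring (adjusted p = 0.0572) and without any 1 of the 3 uninduced arrays; its further probe set gave 0.61 ± 0.27 at 24 h (adjusted p = 0.209), -1.73 at 48 h and -1.85 at 72 h.

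The Hif1a signal was 1862, 2229 and 1720 in uninduced cells, 556, 2703 and 2934 at 24 h, 2634, 3026 and 3328 at 48 h, and 3178, 2763 and 2750 at 72 h. Apart from the first 24 h array, every induced array lay above every uninduced array. Its differences were -0.22 ± 0.46 at 24 h, 0.63 ± 0.46 at 48 h and 0.58 ± 0.46 at 72 h, and none passed (adjusted p = 0.797, 0.326 and 0.343). When that array was left out they were 0.54 ± 0.15 (adjusted p = 0.0170), 0.63 (adjusted p = 0.00126) and 0.58 (adjusted p = 0.00176).

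Of the HIF targets outside glycolysis, Vegfa, which encodes the vascular growth factor, rose from signals of 61.5, 58.4 and 48.0 in uninduced cells to 108, 143 and 104 at 48 h and 147, 123 and 116 at 72 h. All 6 later arrays lay above the uninduced ones. The rise was 0.90 ± 0.21 at 48 h (adjusted p = 0.00612; 0.0657 after quantile normalization) and 1.00 ± 0.21 at 72 h (adjusted p = 0.00233), and a further probe set gave 0.35 and 0.30 without passing. Bnip3, a mitophagy receptor, had signals of 1815, 1361 and 563 in uninduced cells and 623, 684 and 390 at 72 h; its difference of -1.00 ± 0.43 had an adjusted p of 0.0783, or 0.00477 with the block and 0.0430 without the first 24 h array, and that of -0.77 ± 0.43 at 48 h one of 0.190, or 0.0227 with the block. Egln3, a prolyl hydroxylase that marks HIF alpha for degradation, lay between 53.5 and 167 on the 12 arrays, with differences of 0.41, 0.42 and -0.03 ± 0.33.

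**Figure D2:**
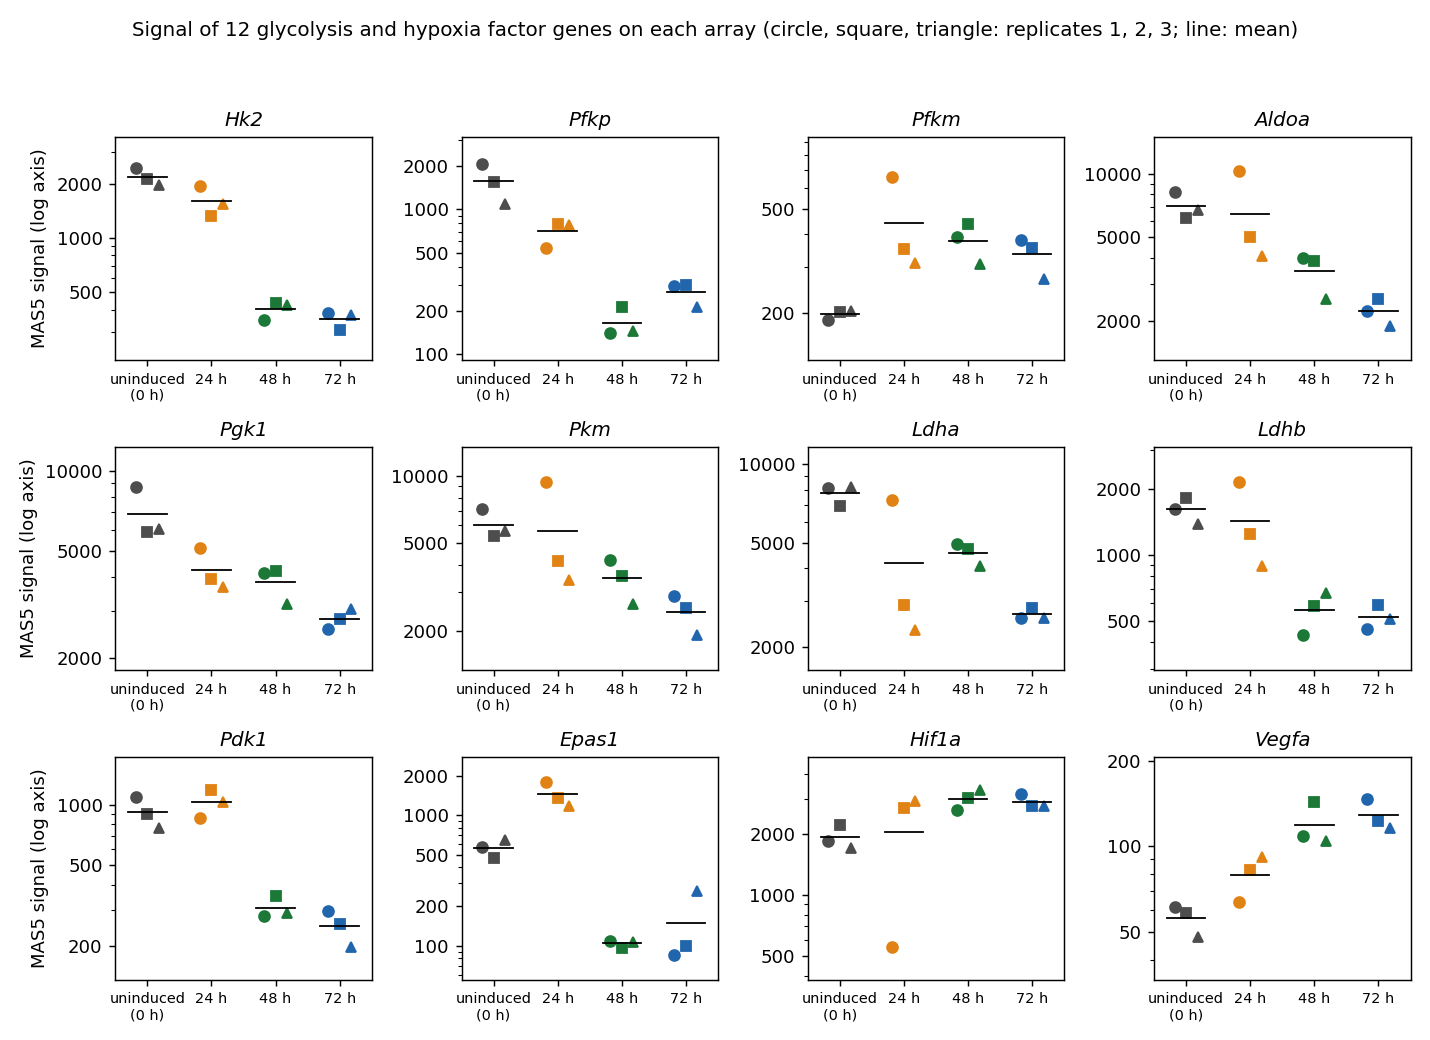
Signal (y axis, MAS5 signal on a log scale that differs between panels) of 12 members on each of the 12 arrays, by group (x axis); circles, squares and triangles are replicates 1, 2 and 3, and lines are group means of 3 arrays. Hk2, Pfkp, Ldhb and Pdk1 are low on all 6 arrays of 48 h and 72 h, Epas1 is high at 24 h and low after it, and the first 24 h array stands far from its group for Pkm, Ldha and Hif1a.

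Further probe sets gave the same sign for most calls. Of 21 further probe sets tested for members called at 48 h, 21 had the sign of the probe set used and 12 passed as well. At 72 h 24 of 25 had the same sign and 18 passed, and at 24 h 5 of 5 had the same sign and 1 passed. The probe set of Tigar described above is the exception at 72 h.

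Between 24 h and 48 h, 6 members passed, 1 higher and 5 lower, against 16.2% of all genes, 9.37% higher and 6.87% lower. The difference was -3.59 ± 0.34 for Epas1 (adjusted p = 4.38e-05), -1.99 ± 0.29 for Pfkp (adjusted p = 0.000582), -1.94 ± 0.21 for Hk2 (adjusted p = 9.74e-05), -1.68 ± 0.23 for Pdk1 (adjusted p = 0.000469) and -1.25 ± 0.30 for Ldhb (adjusted p = 0.0122). Pfkfb3 rose by 1.37 ± 0.23 (adjusted p = 0.00136). In each of the 6 the groups did not overlap. The calls of Epas1, Pfkp, Hk2, Pdk1 and Pfkfb3 held under every alternative tried, and that of Ldhb was lost without the first 48 h array and where the fit held the compared groups alone. For Pfkp, its weakest probe set gave 0.08, with the other sign. The further probe set of Pfkfb3 gave 0.14 (limma adjusted p = 0.756).

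The median of the 29 members between 24 h and 48 h was -0.31, and that of all genes 0.01. With the replicate block 10 members passed, 1 higher and 9 lower, the block adding Aldoa (adjusted p = 0.0357), Aldoc (0.0392), Tigar (0.0367) and Eno3 (0.0385). With the first 24 h array left out 7 passed, 2 higher and 5 lower, and Ldha was then higher at 48 h than at 24 h (adjusted p = 0.00110). The shares of all genes are not given for the block or for that fit. Of all genes, 1183 were higher and 867 lower; this split was 982 and 1161 after quantile normalization and 935 and 1313 after median centring, which moved the median of all genes by -0.11 and -0.17.

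Between 48 h and 72 h, 0 of the 29 members passed in limma, against 0.681% of all genes (0.546% higher and 0.135% lower), and 5 had an unadjusted p under 0.05, 4 of them lower: Slc2a1, Slc2a3, Pgk1 and Ldha, with Pfkp higher. The median of the members was -0.30 and that of all genes -0.03. The sizes were -0.65 ± 0.22 for Slc2a1, -0.71 ± 0.22 for Slc2a3, -0.78 ± 0.32 for Ldha, -0.45 ± 0.20 for Pgk1 and 0.66 ± 0.29 for Pfkp. With the first 24 h array left out 2 members passed, both lower: Slc2a3 (adjusted p = 0.0227) and Ldha (adjusted p = 0.00531). With the third 72 h array left out as well, 6 passed, 5 of them lower. With array weights 11 passed.

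To see whether isoforms of an enzyme moved unequally, the log2 ratio of 2 genes on the same array was followed over the 4 groups, as the difference of their log2(signal + 16). Rescaling an array moves such a difference little for bright genes and more for dim ones. Of 12 pairs, 10 could be measured, since Eno1 has no value. An exact permutation test of the between-group sum of squares used all 369600 arrangements of the 12 arrays, and its p-values, of which the smallest possible is 6.49e-05, were adjusted over the 10 pairs. The ratio changed over the groups for 6 of 10. Values are changes from the mean of the uninduced arrays, since levels of different probe sets are not comparable.

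The change of Hk2 relative to Hk1 was -0.85, -0.37 and -0.25 on the 24 h arrays, -2.51, -2.08 and -1.67 at 48 h, and -3.04, -3.09 and -2.30 at 72 h (adjusted p = 0.00281). The ratio was lower on all 9 induced arrays than on the uninduced ones. Pfkm relative to Pfkl changed by 0.34, 1.57 and 1.87 at 24 h, 1.20, 1.69 and 1.86 at 48 h and 2.26, 2.15 and 2.29 at 72 h (adjusted p = 0.0151), with the first 24 h array inside the range of the uninduced arrays (-0.54 to 0.44). Both changes passed in all 18 alternatives tried.

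For Slc2a3 relative to Slc2a1 the mean change was already -1.22 at 24 h, and it was -1.09 at 48 h and -1.16 at 72 h (adjusted p = 0.0222; 0.0781 with the replicate block). All 9 induced arrays lay below the uninduced arrays, and the 3 induced groups overlapped. Aldoc relative to Aldoa changed by 1.22, 1.08 and 0.96 (adjusted p = 0.0151), with every induced array above the uninduced ones. That result did not pass after quantile normalization, where the 72 h change was 0.20 (adjusted p = 0.0728), with the mean of all probe sets (adjusted p = 0.0631) or without the third 24 h array (adjusted p = 0.0502).

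For Ldhb relative to Ldha the order was different. The change was 0.51, 1.05 and 0.90 at 24 h, -1.22, -0.73 and -0.31 at 48 h, and -0.20, 0.02 and -0.04 at 72 h (adjusted p = 0.00281). The ratio was above every uninduced array at 24 h, below every uninduced array at 48 h, and within their range at 72 h. Epas1 relative to Hif1a changed by 3.44, 0.78 and 0.46 at 24 h, -2.65, -3.00 and -3.00 at 48 h, and -3.22, -2.83 and -1.55 at 72 h (adjusted p = 0.00281).

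The ratios of Pfkp to Pfkl, Pdk3 to Pdk1, Pgam2 to Pgam1 and Slc16a3 to Slc16a1 did not pass (adjusted p = 0.0981, 0.127, 0.720 and 0.842). The change of Pfkp relative to Pfkl was -2.78, -0.13 and 0.33 on the 24 h arrays, -3.02, -2.12 and -1.98 at 48 h, and -0.91, -0.91 and -0.87 at 72 h. The first 24 h array lay far below the other two, and without it the test passed (adjusted p = 0.00325). That of Pdk3 to Pdk1 passed without the first 72 h array (adjusted p = 0.0231) or the third (adjusted p = 0.0154). The third 72 h array, at 2.56, was the highest of the 12 for that pair and the first, at -0.51, lower than all uninduced arrays.

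**Figure D3:**
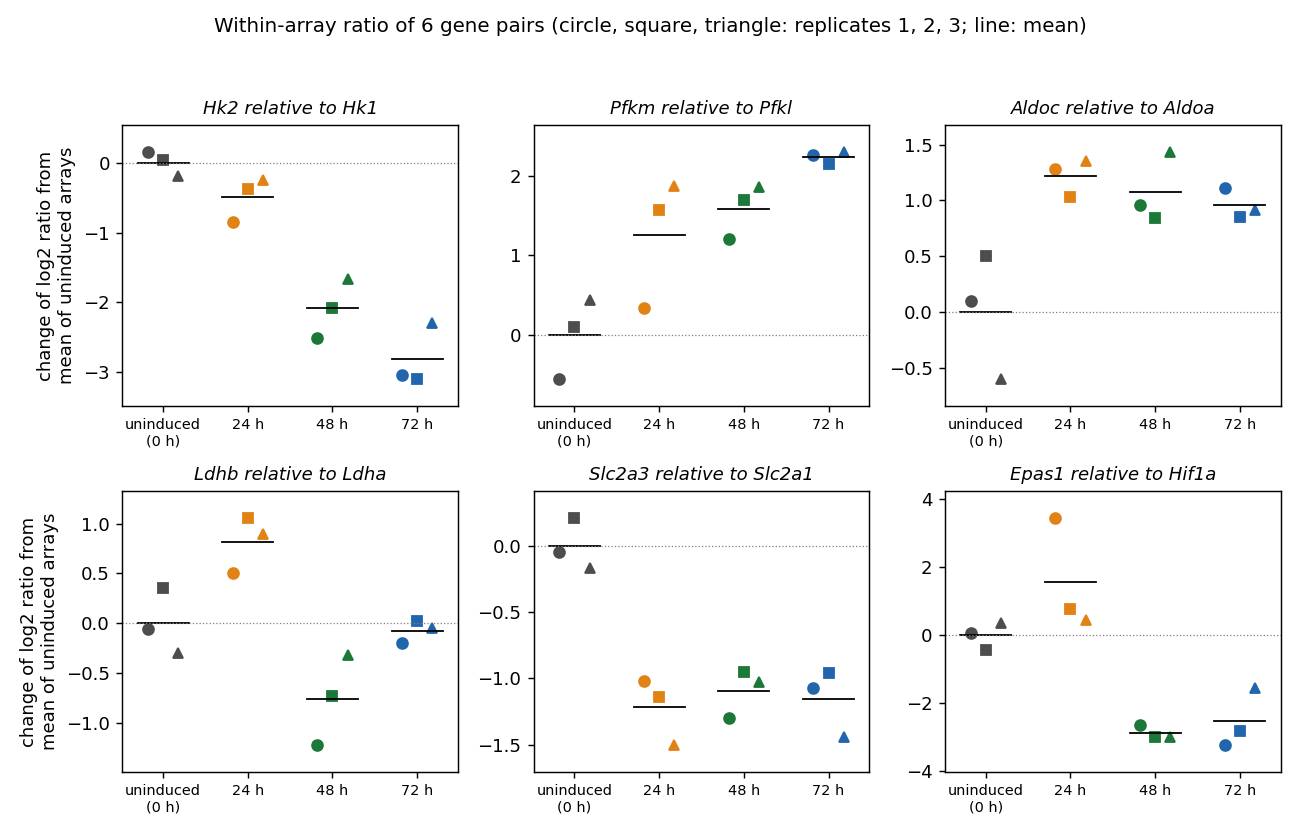
Change of the within-array log2 ratio of 6 gene pairs from the mean of the 3 uninduced arrays (y axis, log2 units), by group (x axis); circles, squares and triangles are replicates 1, 2 and 3, and lines are group means. Hk2 relative to Hk1 falls to a mean of -2.81 at 72 h, Pfkm relative to Pfkl reaches 2.23, and Ldhb relative to Ldha is above 0 at 24 h and below 0 at 48 h.

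Of 99 other genes of the pathway and of HIF control, 76 were tested. At 24 h 9 were higher and 1 lower, at 48 h 14 and 12, at 72 h 11 and 19, and between 24 h and 48 h 6 and 14, where 7.36% and 2.76% of all genes were higher and lower at 24 h, 21.1% and 13% at 48 h, 23.8% and 17.5% at 72 h, and 9.37% and 6.87% between 24 h and 48 h. Between 48 h and 72 h 0 passed. The same shares of all genes apply to the counts of each list below. Their median log2 differences in these comparisons against uninduced cells were 0.24, -0.08 and -0.23.

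Among 10 further glycolytic genes tested, Fbp1, an enzyme of the reverse path that undoes the phosphofructokinase step, had signals of 37.8, 51.0 and 84.2 in uninduced cells, 537, 253 and 354 at 24 h, 20.4, 32.2 and 29.5 at 48 h, and 23.8, 14.8 and 11.2 at 72 h. It was above all uninduced arrays at 24 h and below them later, as Epas1 was. Fbp1 rose by 2.42 ± 0.31 at 24 h (adjusted p = 0.000369) and fell by 1.15 ± 0.31 at 72 h (adjusted p = 0.00927). Bpgm, bisphosphoglycerate mutase, rose by 1.16 ± 0.22, 1.76 ± 0.22 and 1.27 ± 0.22 at the 3 times. Fbp2 fell by 1.53 ± 0.41 at 48 h and at 72 h, Ldhc fell by 1.16 ± 0.36 at 72 h, and Pfkfb2 rose by 0.83 ± 0.24 at 72 h. The Fbp2 signal was 10.0 to 17.8 at 48 h and 3.75 to 20.4 at 72 h, below the array medians. That of Ldhc was 2.94 to 19.6 at 72 h, also below them. The sizes of the Fbp2 and Ldhc falls depend on the 16 added to each signal. The rise of Pfkfb2 was 0.45 (adjusted p = 0.130) after quantile normalization and 0.51 (adjusted p = 0.0896) after median centring, and was lost without the first uninduced or the first 72 h array. The Ldhc call was lost with array weights and without the first or the third array of either group (adjusted p = 0.0816 without the third 72 h array). The Fbp2 calls were lost without the third uninduced array at 48 h and the first 72 h array at 72 h, and the 24 h call of Bpgm where the fit held the compared groups alone.

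Of 11 genes for the entry of pyruvate into mitochondria or its use there, 0 passed at 24 h, 4 were lower at 48 h and 5 at 72 h. Of all genes 13% and 17.5% were lower at 48 h and 72 h, and none of the 11 was called higher. Without the first 24 h array, 2 were higher and 1 lower at 24 h, and 1 and 7 at 72 h. In that fit Pdk4 was higher at 24 h (1.17 ± 0.31, limma adjusted p = 0.0172) and Pdha1 lower (-0.59 ± 0.16, adjusted p = 0.0193). Over fits with 1 array left out, up to 2906 and 7404 of all genes were called at these times. Mpc1, a subunit of the mitochondrial pyruvate carrier, fell by 1.49 ± 0.33 at 48 h, Pdk4 fell by 1.42 ± 0.32 at 72 h, and Pdha1, the subunit that these kinases act on, fell by 1.11 ± 0.31 at 72 h. Of 7 pentose phosphate genes, Rpe (-1.31 ± 0.37) and Taldo1 (-0.84 ± 0.27) were lower at 72 h. The Rpe call was lost without the first or second 72 h array and with the mean of its probe sets, and that of Taldo1 without either of these arrays or the first or the third uninduced array. Of 4 further transporters tested, Slc2a6 rose by 1.04 ± 0.25 at 24 h and 1.31 ± 0.25 at 48 h. Its 24 h call held under 17 of 22 alternatives. That call was lost after median centring (adjusted p = 0.0537) and without the first or the third uninduced array. The Slc2a6 signal was 5.30, 9.02 and 5.55 in uninduced cells, below the median of each array. It was 52.6, 19.9 and 24.4 at 24 h, with the second below its array's median, and 38.8, 44.6 and 36.3 at 48 h. Slc2a6 passed the filter through induced arrays. The sizes of its rises depend on the constant added to each signal.

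Among 12 genes of HIF control tested, 5 were higher and 1 lower at 72 h, where 23.8% and 17.5% of all genes were. Arnt2, a partner of HIF alpha known from neurons, rose by 1.03 ± 0.26, 2.04 ± 0.26 and 2.46 ± 0.26 at the 3 times. Its 24 h call held under 16 of 23 alternatives and was lost after quantile normalization (adjusted p = 0.0535), after median centring (adjusted p = 0.0542) and without the second or the third uninduced array. Cited2, a competitor for the coactivator of HIF, rose by 1.71 ± 0.31 at 72 h, and Egln1, the main oxygen-dependent hydroxylase, by 1.41 ± 0.27, while Hspa9 fell by 1.48 ± 0.42, a call lost after quantile normalization (-1.11, adjusted p = 0.0526) and without the third uninduced or the second 72 h array. Of 32 further HIF target genes, 4 were higher and 1 lower at 24 h, 7 and 5 at 48 h, and 4 and 7 at 72 h; the shares of all genes were 7.36% and 2.76%, 21.1% and 13%, and 23.8% and 17.5%. At 72 h Nrn1 (3.11 ± 0.26) and Ppp1r3c (2.73 ± 0.29) were higher, and Angptl4 (-2.69 ± 0.34) and Hmox1 (-1.88 ± 0.30) lower. The uninduced signal was 18.3, 11.8 and 16.3 for Nrn1 and 2.51, 10.6 and 1.17 for Ppp1r3c, below the median of each array. Both passed the filter through induced arrays. The 72 h signal of Angptl4 was 10.5, 24.0 and 16.8, also below the array medians. The sizes for these genes depend on the 16 added to each signal.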

How the data were processed

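RNA of 12 samples (3 arrays in each of 4 groups) was measured on 1-colour Affymetrix arrays. The deposited values are MAS5 signal intensity, per the labels and the submitters' processing notes; its settings are not given in these sources. The trimmed mean, leaving out 2% at each end, was 150.001 on every array. Of 45101 probe sets, 34945 carry 1 gene symbol, 932 several and 9160 none, and 64 are controls. The members and gene lists were chosen with earlier results of these data known.

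Signals were taken as log2(signal + 16). A gene was tested if its brightest probe set lay above the median of its array on at least 3 of 12 arrays. One limma 3.58.1 model (R 4.3.3; 4 groups, trend) gave 5 contrasts, with Benjamini-Hochberg adjustment over 12629 genes and a threshold of 0.05. Fold changes on this scale understate those of dim genes. Named are all members and, from each other list, genes among its 3 largest rises and 3 largest falls against uninduced cells that passed without overlap of the arrays. The number of arrays limits the precision. No arrays held identical values.

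Replicate numbers in the labels were checked for pairing by the correlation of same-numbered deviations from group means. Every pair exceeded 0.1 for 24 h against uninduced (0.139 to 0.152), 48 h against uninduced (0.134 to 0.172), 48 h against 24 h (0.133 to 0.416) and 72 h against 48 h (0.236 to 0.567). For 72 h against uninduced the lowest was 0.0771, so the numbers were not taken as pairing there. Block values printed for that comparison are an alternative fit only. The main fit held no block for any comparison. Alternatives covered pseudocount, filter, scaling, array weights, choice of probe set, the block, and each array left out. Leaving out the first 24 h and the third 72 h arrays together was chosen after seeing the data.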

Additional observations from a re-analysis of the deposited data

Results flagged for a closer look

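For 6 members the change from uninduced cells at 48 h differed from that at 24 h, by the direct limma contrast of 48 h against 24 h. The difference was -3.59 log2 units for Epas1, -1.99 for Pfkp, -1.94 for Hk2, -1.68 for Pdk1, -1.25 for Ldhb and 1.37 for Pfkfb3. Both times share the uninduced arrays, which cancel in this contrast. For Epas1, Pfkfb3 and Pdk1 the sign against uninduced cells was opposite at the 2 times on the probe set used, and the 24 h differences of Pfkfb3 (-0.72) and Pdk1 (0.17) did not pass. Further probe sets shared this change of sign for Epas1 only. That of Pfkfb3 was positive at both times (0.30 and 0.44). Those tested for Pdk1 were negative at both times (-0.04 and -0.28 at 24 h, -1.99 and -0.74 at 48 h).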

How the results depend on the processing

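Of 42 calls on members, 27 held under every alternative tried, and no call changed sign. Counts that moved by over 1.5 times are given by comparison, and the cause was not tested. At 24 h against uninduced, members called were 5 and became 3 with no filter, 13 with array weights, 0 with only the groups compared, 9 with the replicate block, 17 with the first 24 h and the third 72 h array left out, and 0 to 16 with 1 array left out; all genes were 1279 and became 2231 with array weights, 337 with only the groups compared, 3171 with both arrays left out, and 656 to 2906 with 1 left out. At 48 h, members were 14 and became 9 after quantile normalization; all genes were 4306 and became 6939 with array weights, 6475 with only the groups compared, 6936 with both arrays left out, and 3158 to 6729 with 1 left out. At 72 h, all genes were 5213 and became 8174 with array weights. Between 24 h and 48 h, members were 6 and became 10 after median centring and 10 with the replicate block; all genes were 2050 and became 3246 with array weights, 981 with only the groups compared, 3242 with both arrays left out, and 1124 to 2929 with 1 left out. Between 48 h and 72 h, members were 0 and became 11 with array weights, 1 with only the groups compared, 6 with both arrays left out, and 0 to 2 with 1 left out; all genes were 86 and became 19 and 226 with pseudocounts of 1 and 64, 50 with a filter at percentile 75, 144 with the mean of all probe sets, 2381 with array weights, 421 with only the groups compared, 445 with both arrays left out, and 23 to 470 with 1 left out.

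Among pairs, the 72 h change of Aldoc to Aldoa was 0.20 after quantile normalization and 0.96 with the mean of all probe sets, neither past the threshold, and 0.66 to 1.21 with 1 array left out. That of Slc2a3 to Slc2a1 was -1.16 with the replicate block, which did not pass. With 1 array left out, that of Ldhb to Ldha was -0.22 to 0.10, positive without the second uninduced array, that of Pfkp to Pfkl -0.93 to -0.85, and that of Pdk3 to Pdk1 -0.000945 to 1.53. The Hif1a difference at 24 h turned to 0.54 without the first 24 h array, and with both doubted arrays left out, and lay between -0.64 and 0.54 with 1 array left out. The replicate block added 14 member calls, lost none of the 42, and changed no pair call besides Slc2a3 to Slc2a1. The filter at percentile 75 left 37 of the 42 calls with a value. Of the dim members, Eno2 lies near the median signal of an array and Pgam2 below it on most arrays, where small changes are not measurable.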
